A study of Mus musculus with 12 samples.

Results

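The 38 genes described here encode collagens and other extracellular matrix proteins of the dermis, the connective tissue under the epidermis. They were listed by gene symbol. A listed gene counted as measured when a probe annotated to it had a detection p under 0.05 on at least 3 of the 12 arrays, and its brightest such probe gave 1 value per gene. Of the 38, 33 had an annotated probe and 32 were measured, out of 12099 genes tested in all. Fmod, the measured gene nearest the threshold, was detected on 4 arrays, whereas the probe of Fbln5 was detected on 0 arrays, with log2 values of 4.16 to 4.44, and was left out. Col6a3, Col12a1, Fbn1, Fbn2 and Loxl2 were not analysed here.

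Gene expression was measured on one-colour Illumina bead arrays of full-thickness skin, which holds dermis and epidermis, and of epidermis. The tissue came from mice on a C57BL/6 background at postnatal day 0 that lacked keratin 1 (Krt1-/-), a keratin of the differentiating epidermal layers, or carried it (Krt1+/+). The 4 groups of 3 arrays each were Krt1-/- skin, Krt1+/+ skin, Krt1-/- epidermis and Krt1+/+ epidermis, all of the same strain and age, with no other allele and no treatment named in the labels. Nothing in the labels states whether arrays of a group stand for separate animals, so the p-values speak for the spread among these arrays, part or all of which may be technical.

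Dermal fibroblasts secrete fibrillar collagens as procollagens, which are trimmed outside the cell, cross-linked by lysyl oxidases and coated with small proteoglycans that set fibril width. Elastin laid on microfibrils gives the dermis its recoil, and collagen VI and matricellular glycoproteins tie the fibrils to cells. Keratinocytes are known for making a few of these proteins, such as fibronectin and tenascin C, but not the bulk of the fibrillar collagen. In such bulk samples, fewer cells of a type and less RNA per cell cannot be told apart.

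Array medians lay between 93.3 and 105.1 intensity units, 17184 to 19931 of 45281 probes were detected per array, and arrays of a group correlated at 0.967 to 0.984. The Krt1 probe read 280, 319 and 183 raw units in Krt1-/- skin, against 4329, 5915 and 1794 in Krt1+/+ skin, a fall of 26.1-fold in normalized intensity (limma, adjusted p = 8.1e-05). In epidermis it read 1107, 2921 and 987 on the arrays labelled Krt1-/-, against 1417, 2404 and 5954 on the Krt1+/+ arrays, and the change did not pass (limma, adjusted p = 0.18). Krt1 thus goes against the label of those epidermis arrays, and every direction drawn from them below rests on that label. The sources used here do not say whether this probe lies within the deletion. The first 6 sample columns of the deposited table hold Krt1-/- skin and Krt1+/+ epidermis and the last 6 hold Krt1+/+ skin and Krt1-/- epidermis. Over the 16240 probes undetected on every array, arrays of different groups correlated at 0.162 on average within a column set and 0.0902 across the sets. Genotype and column set therefore cannot be told apart within a tissue. An average over both tissues or both genotypes holds each column set in equal parts, so an additive log2 shift common to all 6 arrays of a set drops out of it; whether such a shift is common to them was not tested.

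The matrix genes were far brighter in skin than in epidermis, whichever the genotype. Averaged over both genotypes, 28 of 32 measured members were higher in skin and 0 were lower (limma, adjusted p under 0.05). At an unadjusted p under 0.05 the counts were also 28 and 0. Over all genes tested, 18.7% were higher in skin and 23.7% lower (limma, adjusted p under 0.05). The median member change was 3.92 on the log2 scale, whereas the median over all genes was −0.0918. In Krt1-/- tissue 28 members were higher in skin (19.3% of all genes), and in Krt1+/+ tissue 28 were higher (19.8% of all genes). A comparison within each column set, added after the data were seen, gave 26 members higher in Krt1-/- skin than in Krt1+/+ epidermis (13.8% of all genes) and 28 higher in Krt1+/+ skin than on the arrays labelled Krt1-/- epidermis (20.9% of all genes). The members that did not pass in all 4 of these comparisons were Col16a1, Fbln1, Fmod, Fn1, Postn and Tnc.

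**Figure D1:**
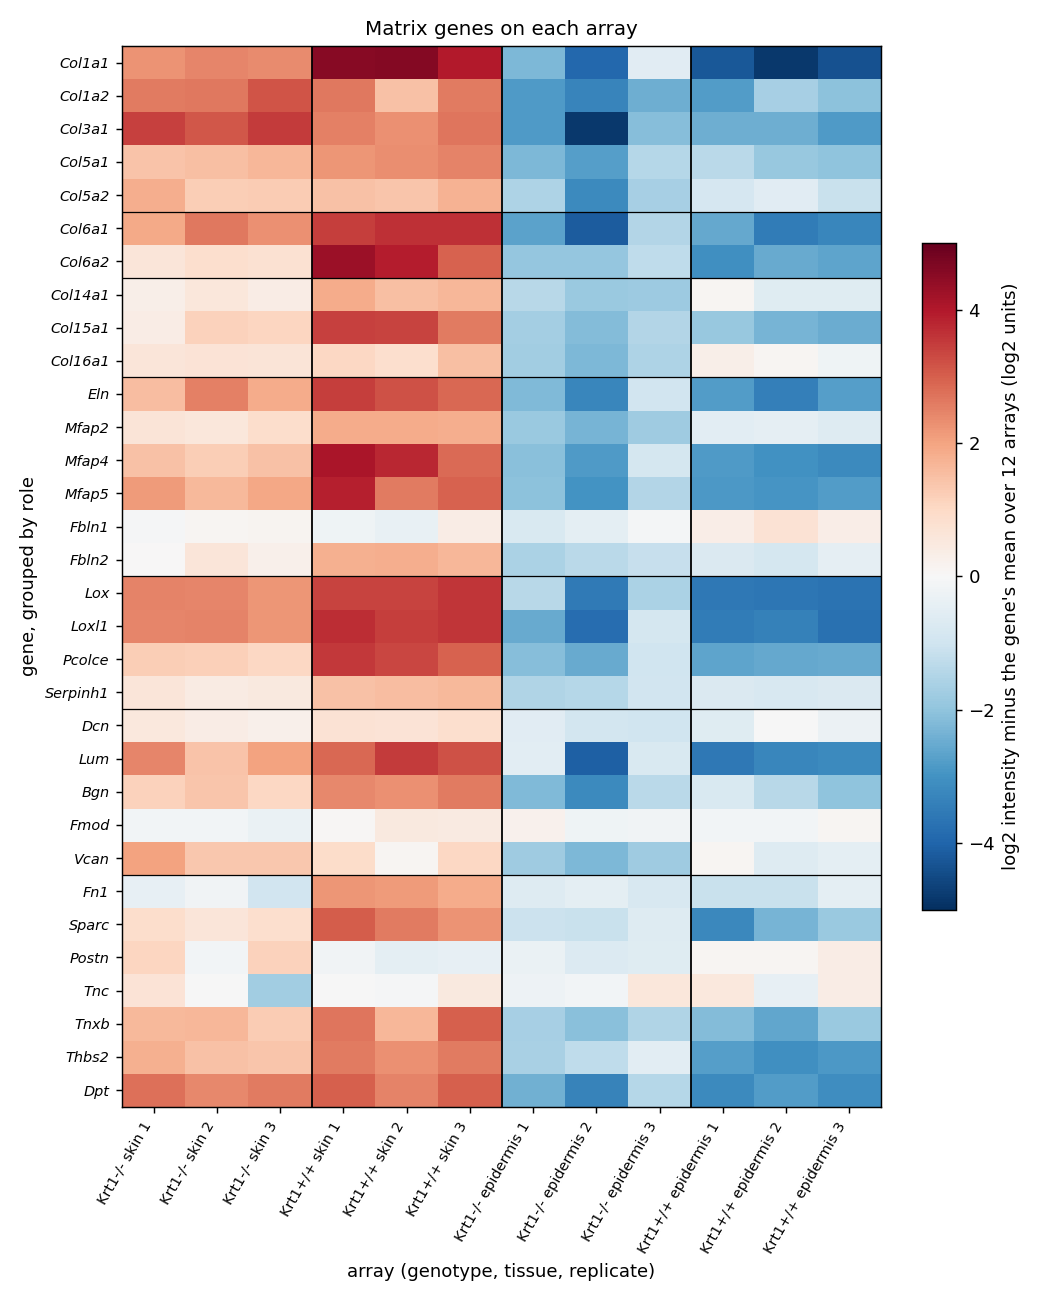
Each row is a measured matrix gene, grouped by role, and each column an array. Colour gives the log2 intensity minus the gene's mean over the 12 arrays, in log2 units. Nearly all rows are high on the 6 skin arrays and low on the 6 epidermis arrays, and the array labelled Krt1-/- epidermis replicate 2 is the lowest of its group for 25 of 32 genes.

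Between genotypes the picture depended on the tissue. In Krt1-/- skin 17 of 32 members fell and 2 rose, whereas on the arrays labelled Krt1-/- epidermis 9 fell and 5 rose. Averaged over both tissues, 12 members fell and 0 rose. Tested itself, the difference between the skin change and the epidermis change passed for 19 of 32 members, against 30.9% of all genes. At an unadjusted p under 0.05 the average gave 15 lower and 1 higher. With median centring in place of quantile normalization, 9 fell and 3 rose in Krt1-/- skin. Over all genes tested, 16.2% fell and 14.4% rose in skin, 16.8% fell and 15% rose in epidermis, and 13.2% fell and 10.9% rose in the average. These shares are of the main fit (limma, adjusted p under 0.05). None is given here for the unadjusted counts, median centring or the fits that leave out an array. The median member change was −1.09 in skin, 0.12 in epidermis and −0.37 in the average, on the log2 scale, where all genes had medians of −0.0709, −0.000513 and −0.0483. The number that rose in skin was 0 without Krt1-/- skin replicate 1, and 1 without Krt1-/- skin replicate 3 or Krt1+/+ skin replicate 2. The number that rose in the average was 2 without the array labelled Krt1-/- epidermis replicate 2, and 1 without its replicate 1 or without Krt1-/- skin replicate 2.

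The fibrillar collagens, which form the load-bearing fibrils of the dermis, were all higher in skin than in epidermis, 5 of 5 in each genotype. Col1a1, a chain of type I collagen, had log2 intensities of 11.74, 11.90 and 11.83 on the Krt1-/- skin arrays, against 14.03, 14.06 and 13.44 on the Krt1+/+ skin arrays. Its epidermis values were 7.25, 5.56 and 8.92 on the arrays labelled Krt1-/- epidermis, against 5.24, 4.67 and 5.13 on the Krt1+/+ epidermis arrays. No skin array overlapped any epidermis array, and within epidermis the arrays labelled Krt1-/- were all above the Krt1+/+ arrays although they spread widely among themselves. Skin exceeded epidermis by 6.71 on average over genotypes, or 104-fold (SE 0.40, limma adjusted p = 1.4e-08). In Krt1-/- skin Col1a1 fell by 2.02 (SE 0.57, limma adjusted p = 0.016), a call that ended without Krt1+/+ skin replicate 1 (adjusted p = 0.0555) or replicate 2 (0.0512). The Krt1+/+ skin signal stood at 53.2% of the brightest probe of the array. On the arrays labelled Krt1-/- epidermis Col1a1 rose by 2.23 (SE 0.57, limma adjusted p = 0.0088), or by 1.39 without replicate 3 of that group.

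Col1a2, the partner chain in type I collagen, read 10.59, 10.64 and 11.13 on the Krt1-/- skin arrays, against 10.61, 9.43 and 10.57 on the Krt1+/+ skin arrays. Epidermis arrays gave Col1a2 values of 5.14, 4.69 and 5.54 on the arrays labelled Krt1-/- epidermis, against 5.18, 6.34 and 5.95 on the Krt1+/+ epidermis arrays. The genotypes overlapped in both tissues, and neither change passed (0.58 in skin and −0.70 in epidermis). Col3a1, the type III collagen chain abundant in newborn skin, had values of 12.90, 12.59 and 12.98 on the Krt1-/- skin arrays, against 12.01, 11.79 and 12.15 on the Krt1+/+ skin arrays. Its epidermis arrays gave 6.66, 4.67 and 7.36 on the arrays labelled Krt1-/- epidermis, against 7.05, 7.07 and 6.66 on the Krt1+/+ epidermis arrays. The Krt1-/- skin arrays were all above the Krt1+/+ skin arrays, but the change of 0.84 did not pass (limma, adjusted p = 0.2). It passed with only the skin arrays in the fit (limma, adjusted p = 0.0124) and without the array labelled Krt1-/- epidermis replicate 2 (0.0112). Col5a2, a chain of the type V collagen that nucleates fibrils, had 9.61, 9.004 and 9.05 on the Krt1-/- skin arrays, against 9.26, 9.17 and 9.51 on the Krt1+/+ skin arrays. In epidermis its values were 6.24, 4.60 and 6.12 on the arrays labelled Krt1-/- epidermis, against 6.94, 7.23 and 6.69 on the Krt1+/+ epidermis arrays. The skin genotypes overlapped, while all arrays labelled Krt1-/- epidermis lay below the Krt1+/+ ones, a fall of 1.30 (SE 0.35, limma adjusted p = 0.012). That call ended without Krt1+/+ epidermis replicate 2 (adjusted p = 0.0525), and the change was −0.77 without the array labelled Krt1-/- epidermis replicate 2. Col5a1, the other type V chain measured, changed by −0.80 in skin and −0.60 in the average over tissues. Both calls ended when most arrays were left out singly (adjusted p up to 0.117 in skin without Krt1+/+ skin replicate 3, and up to 0.0943 in the average without the array labelled Krt1-/- epidermis replicate 2).

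Since the 5 fibrillar collagens shared the difference between tissues, the start regions of 3 of them are shown. Each runs over the 250 bases before the gene's start from RefSeq (GRCm38.p6), on the plus strand in 5′ to 3′ direction, at chr6:4505368-4505617 for Col1a2, chr1:45311288-45311537 for Col3a1 and chr2:27886175-27886424 for Col5a1. Capitals mark matches on either strand to 4 motifs, the TATA box TATAAA, the CCAAT box CCAAT, the GC box GGGCGG and the AP-1 motif TGANTCA.
Col1a2: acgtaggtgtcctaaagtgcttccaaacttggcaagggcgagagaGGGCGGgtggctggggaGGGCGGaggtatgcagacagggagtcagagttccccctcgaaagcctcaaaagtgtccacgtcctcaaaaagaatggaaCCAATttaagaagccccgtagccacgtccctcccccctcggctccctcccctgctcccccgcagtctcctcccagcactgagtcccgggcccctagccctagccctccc
Col3a1: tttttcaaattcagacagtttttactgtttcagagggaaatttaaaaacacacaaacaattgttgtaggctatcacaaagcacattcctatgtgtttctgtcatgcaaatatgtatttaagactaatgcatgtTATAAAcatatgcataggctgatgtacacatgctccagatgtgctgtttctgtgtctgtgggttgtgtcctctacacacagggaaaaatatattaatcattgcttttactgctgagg
Col5a1: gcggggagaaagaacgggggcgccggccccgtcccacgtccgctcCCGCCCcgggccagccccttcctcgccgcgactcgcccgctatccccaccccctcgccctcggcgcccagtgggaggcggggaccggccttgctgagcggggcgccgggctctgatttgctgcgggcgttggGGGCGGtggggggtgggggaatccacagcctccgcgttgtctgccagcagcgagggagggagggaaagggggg
Col1a2 held CCAAT beginning 109 bases before its start and GGGCGG beginning 205 and 188 bases before it. Col3a1 held TATAAA beginning 117 bases before its start, and Col5a1 held GGGCGG beginning 205 bases before on the reverse strand and 73 bases before on the forward strand. Of the 24 listed members in the promoter table, measured or not, 13 held GGGCGG, 5 held CCAAT, 3 held TATAAA and 2 held TGANTCA. Over all 27025 genes of that table the shares were 32.9%, 34.5%, 13.0% and 6.87% in the same order. These matches describe letters only.

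**Figure D2:**
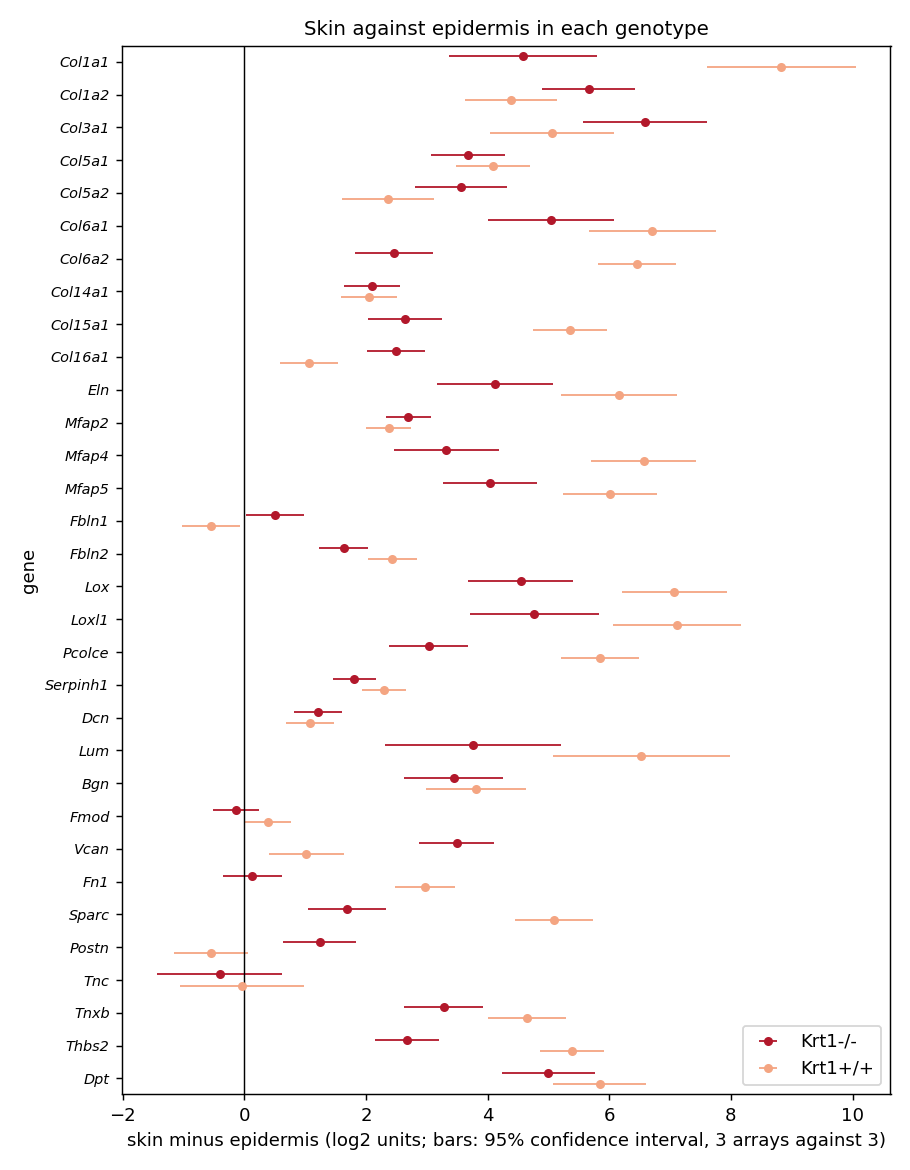
Skin minus epidermis for each measured matrix gene, in log2 units, with 95% confidence intervals from limma for Krt1-/- and for Krt1+/+ tissue (3 arrays against 3 each). The intervals lie right of 0 for most genes and cross 0 in at least 1 genotype for Fmod, Fn1, Postn and Tnc, while that of Fbln1 lies right of 0 in Krt1-/- and left of 0 in Krt1+/+ tissue.

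Collagen VI forms beaded filaments around cells, and its chains Col6a1 and Col6a2 were both higher in skin. Col6a1 read 11.31, 12.04 and 11.70 on the Krt1-/- skin arrays, against 12.87, 13.07 and 13.08 on the Krt1+/+ skin arrays. In epidermis Col6a1 read 6.74, 5.26 and 7.93 on the arrays labelled Krt1-/- epidermis, against 6.84, 5.91 and 6.14 on the Krt1+/+ epidermis arrays. All skin arrays lay above all epidermis arrays, by 5.87 on average (58.6-fold, limma adjusted p = 1.1e-08). The Krt1-/- skin arrays were all lower than the Krt1+/+ ones, but the change of −1.32 missed the threshold (limma, adjusted p = 0.053). It passed with only the skin arrays in the fit (limma, adjusted p = 0.00325). Col6a2 had 8.08, 8.32 and 8.26 on the Krt1-/- skin arrays, against 11.77, 11.40 and 10.44 on the Krt1+/+ skin arrays. On the epidermis arrays it had 5.54, 5.53 and 6.20 on the arrays labelled Krt1-/- epidermis, against 4.42, 4.96 and 4.85 on the Krt1+/+ epidermis arrays. The genotypes stood apart in both tissues and in opposite directions. Col6a2 fell by 2.99 in Krt1-/- skin (7.92-fold lower, SE 0.30, limma adjusted p = 1.4e-05), the largest fall of any member there. It rose by 1.02 on the arrays labelled Krt1-/- epidermis (limma, adjusted p = 0.019), a call lost without replicate 3 of that group (adjusted p = 0.0791) or without Krt1+/+ epidermis replicate 1 (0.0716). Without background correction that change was 0.34 (adjusted p = 0.336), it was 0.35 (0.335) in the authors' normalized table and with the mean of its probes 0.51 (0.0516), none of which passed.

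The fibril-associated and multiplexin collagens, which sit on fibril surfaces or in basement membrane zones, were the role group in which all 3 measured members fell in the average over tissues. Col15a1, a collagen of vessel and muscle basement membranes, read 7.12, 7.90 and 7.81 on the Krt1-/- skin arrays, against 10.16, 10.13 and 9.33 on the Krt1+/+ skin arrays. Epidermis arrays gave Col15a1 values of 5.06, 4.55 and 5.29 on the arrays labelled Krt1-/- epidermis, against 4.83, 4.43 and 4.27 on the Krt1+/+ epidermis arrays. The skin genotypes did not overlap and the epidermis genotypes did. Col15a1 fell by 2.26 in Krt1-/- skin (4.8-fold lower, SE 0.28, limma adjusted p = 8.4e-05). Col16a1, a fibril-associated collagen, had 10.41, 10.51 and 10.47 on the Krt1-/- skin arrays, against 10.86, 10.64 and 11.32 on the Krt1+/+ skin arrays. Its epidermis values were 8.09, 7.55 and 8.26 on the arrays labelled Krt1-/- epidermis, against 10.09, 9.92 and 9.60 on the Krt1+/+ epidermis arrays. In both tissues the Krt1-/- arrays were all below the Krt1+/+ arrays, with a wider gap in epidermis. The change was −0.47 in skin, which did not pass, and a fall of 1.90 on the arrays labelled Krt1-/- epidermis (SE 0.22, limma adjusted p = 4.7e-05). Averaged over tissues it fell by 1.19 (limma, adjusted p = 2e-04). Col14a1, which binds collagen fibrils and limits their growth, fell in each tissue (−1.26 in skin and −1.31 in epidermis) and by 1.29 in the average (SE 0.15, limma adjusted p = 7.5e-05). Its other probe, ILMN_2591027, had means of 6.07 on the arrays labelled Krt1-/- epidermis and 6.19 on the Krt1+/+ epidermis arrays. With the mean of its probes the epidermis change was −0.72 (limma, adjusted p = 0.0235).

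Of the 6 measured elastic fibre and microfibril genes, 5 were higher in skin in each genotype, the exception being Fbln1 on its brightest probe. Other Fbln1 probes differed between tissues in opposite directions. On ILMN_2497957 the skin and epidermis means were 10.13 and 9.01 in Krt1+/+ tissue, and 9.06 and 9.40 in Krt1-/- tissue. On ILMN_2602770 they were 4.48 and 6.12, and 5.43 and 4.31, in the same order. Eln, which encodes elastin, read 9.38, 10.38 and 9.70 on the Krt1-/- skin arrays, against 11.29, 11.04 and 10.72 on the Krt1+/+ skin arrays. In epidermis Eln read 5.63, 4.59 and 6.87 on the arrays labelled Krt1-/- epidermis, against 5.06, 4.42 and 5.11 on the Krt1+/+ epidermis arrays. Every skin array exceeded every epidermis array, by 5.14 on average (35.3-fold, limma adjusted p = 1.7e-08). Krt1-/- skin lay below Krt1+/+ skin on all arrays, yet the change of −1.20 missed the threshold (limma, adjusted p = 0.056). It passed without Krt1-/- skin replicate 2 (adjusted p = 0.0374) and without the arrays labelled Krt1-/- epidermis replicate 2 (0.0185) or 3 (0.0137).

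Mfap4, a microfibril-associated protein, had 9.05, 8.83 and 9.07 on the Krt1-/- skin arrays, against 11.65, 11.34 and 10.41 on the Krt1+/+ skin arrays. Its epidermis arrays gave 5.48, 4.76 and 6.73 on the arrays labelled Krt1-/- epidermis, against 4.74, 4.55 and 4.42 on the Krt1+/+ epidermis arrays. The Krt1-/- arrays were lower in skin and higher in epidermis, with no overlap in either tissue. Mfap4 fell by 2.15 in Krt1-/- skin (4.45-fold lower, SE 0.40, limma adjusted p = 0.0014), while its epidermis change of 1.09 did not pass (adjusted p = 0.054). That epidermis change passed without Krt1+/+ skin replicate 3 (adjusted p = 0.0394) or the array labelled Krt1-/- epidermis replicate 2 (0.0112). Mfap2, another microfibril component, read 10.50, 10.41 and 10.73 on the Krt1-/- skin arrays, against 11.68, 11.68 and 11.65 on the Krt1+/+ skin arrays. Epidermis arrays gave Mfap2 values of 7.99, 7.50 and 8.06 on the arrays labelled Krt1-/- epidermis, against 9.30, 9.38 and 9.21 on the Krt1+/+ epidermis arrays. The Krt1-/- arrays were lower without overlap in both tissues, and the average fall was 1.28 (2.43-fold lower, SE 0.12, limma adjusted p = 1.2e-05). Fbln2, a fibulin of elastic fibres and vessel walls, fell by 1.47 in skin and by 1.07 in the average. Its fall of 0.67 in epidermis lost its call without the array labelled Krt1-/- epidermis replicate 1 (adjusted p = 0.0687) or Krt1+/+ epidermis replicate 3 (0.0626). Mfap5, which stabilises microfibrils, was undetected on all Krt1+/+ epidermis arrays and at least 50.5-fold higher in Krt1+/+ skin (limma, adjusted p = 3.1e-08). It fell by 1.25 in Krt1-/- skin, which no longer passed when Krt1-/- skin replicate 2 (adjusted p = 0.058) or Krt1+/+ skin replicate 1 (0.0892) was left out.

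The bounds here and below set an undetected group at the higher of its own signal and the lowest signal of probes detected on that array. Genes of cross-linking and procollagen processing were higher in skin in 4 of 4 measured cases in each genotype. Lox, the lysyl oxidase that cross-links collagen and elastin, read 10.38, 10.35 and 10.10 on the Krt1-/- skin arrays, against 11.27, 11.29 and 11.48 on the Krt1+/+ skin arrays. In epidermis Lox read 6.52, 4.37 and 6.32 on the arrays labelled Krt1-/- epidermis, against 4.33, 4.28 and 4.21 on the Krt1+/+ epidermis arrays. Lox was undetected on all Krt1+/+ epidermis arrays, and among the arrays labelled Krt1-/- epidermis replicate 2 sat far below the other replicates. Krt1+/+ skin was at least 101.5-fold above Krt1+/+ epidermis (limma, adjusted p = 2.2e-08). The arrays labelled Krt1-/- epidermis were at least 2.08-fold above Krt1+/+ epidermis (limma, adjusted p = 0.014), a call lost without replicate 1 (adjusted p = 0.0669) or replicate 3 (0.0602) of the labelled Krt1-/- group. The skin change of −1.07 missed the threshold (adjusted p = 0.059), and passed without the arrays labelled Krt1-/- epidermis replicate 1 (0.0396) or replicate 2 (0.000385).

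Loxl1, a lysyl oxidase relative needed for elastic fibre upkeep, had 10.56, 10.57 and 10.30 on the Krt1-/- skin arrays, against 11.80, 11.55 and 11.68 on the Krt1+/+ skin arrays. On the epidermis arrays it had 5.57, 4.31 and 7.24 on the arrays labelled Krt1-/- epidermis, against 4.62, 4.72 and 4.36 on the Krt1+/+ epidermis arrays. Skin was higher without overlap, by 5.94 on average (61.5-fold, limma adjusted p = 1.1e-08), and neither genotype change passed. Loxl1 was detected on 2 of the arrays labelled Krt1-/- epidermis and on 1 Krt1+/+ epidermis array. The skin change of −1.20 passed without the arrays labelled Krt1-/- epidermis replicate 2 (adjusted p = 0.014) or 3 (0.00498), and the epidermis change of 1.14 without replicate 2 (0.0033). Pcolce, which enhances removal of the procollagen tail, read 8.05, 8.003 and 7.83 on the Krt1-/- skin arrays, against 10.34, 10.16 and 9.77 on the Krt1+/+ skin arrays. Epidermis arrays gave Pcolce values of 4.68, 4.30 and 5.82 on the arrays labelled Krt1-/- epidermis, against 4.18, 4.26 and 4.28 on the Krt1+/+ epidermis arrays. It was undetected on all Krt1+/+ epidermis arrays, and the skin genotypes did not overlap. Pcolce fell by 2.13 in Krt1-/- skin (4.37-fold lower, SE 0.30, limma adjusted p = 2e-04). Serpinh1, the collagen chaperone HSP47, had 12.03, 11.84 and 11.93 on the Krt1-/- skin arrays, against 12.88, 12.99 and 13.04 on the Krt1+/+ skin arrays. Its epidermis values were 9.90, 10.01 and 10.45 on the arrays labelled Krt1-/- epidermis, against 10.69, 10.64 and 10.69 on the Krt1+/+ epidermis arrays. The Krt1-/- arrays were lower without overlap in both tissues, by 0.80 on average (SE 0.12, limma adjusted p = 4e-04). Its fall of 0.55 in epidermis lost its call without the arrays labelled Krt1-/- epidermis replicate 1 (adjusted p = 0.0913) or 2 (0.0781), or Krt1+/+ epidermis replicate 3 (0.0518).

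The small leucine-rich proteoglycans bind collagen fibrils, and versican is a large hyaluronan-binding proteoglycan of the loose matrix. In each genotype 4 of these 5 genes were higher in skin. Dcn, which encodes decorin, read 13.22, 13.07 and 12.97 on the Krt1-/- skin arrays, against 13.44, 13.39 and 13.56 on the Krt1+/+ skin arrays. In epidermis Dcn read 12.13, 11.78 and 11.71 on the arrays labelled Krt1-/- epidermis, against 12.08, 12.67 and 12.41 on the Krt1+/+ epidermis arrays. Dcn was bright on every epidermis array, and skin exceeded epidermis by only 1.14 on average (2.21-fold, limma adjusted p = 1.1e-05). Lum, which encodes lumican, had 10.86, 9.84 and 10.42 on the Krt1-/- skin arrays, against 11.29, 11.90 and 11.58 on the Krt1+/+ skin arrays. Its epidermis arrays gave 7.89, 4.31 and 7.63 on the arrays labelled Krt1-/- epidermis, against 4.82, 5.13 and 5.24 on the Krt1+/+ epidermis arrays. Replicates 1 and 3 labelled Krt1-/- epidermis stood above all Krt1+/+ epidermis arrays, and replicate 2 stood below them. Neither genotype change of Lum passed (−1.22 in skin, adjusted p = 0.19, and 1.55 in epidermis, adjusted p = 0.096). Without the array labelled Krt1-/- epidermis replicate 2, the epidermis change was 2.70 (limma, adjusted p = 6e-05), the change averaged over tissues 0.74 (0.0166), and the skin change passed (0.00352). These values are of the brightest Lum probe. A further Lum probe, ILMN_2773259, had means of 10.24 in Krt1-/- skin and 10.22 in Krt1+/+ skin. In epidermis its means were 5.70 on the arrays labelled Krt1-/- and 4.93 on the Krt1+/+ arrays.

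Bgn, which encodes biglycan, read 11.13, 11.37 and 10.999 on the Krt1-/- skin arrays, against 12.39, 12.28 and 12.58 on the Krt1+/+ skin arrays. Epidermis arrays gave Bgn values of 7.77, 6.79 and 8.61 on the arrays labelled Krt1-/- epidermis, against 9.22, 8.61 and 7.98 on the Krt1+/+ epidermis arrays. The Krt1-/- skin arrays were all lower, and the epidermis genotypes overlapped. Bgn fell by 1.25 in Krt1-/- skin (limma, adjusted p = 0.024), a call that ended when replicate 1 or 3 of either skin group was left out (adjusted p of 0.0606 to 0.0694). Vcan, the versican gene, had 8.57, 7.91 and 7.91 on the Krt1-/- skin arrays, against 7.50, 6.65 and 7.60 on the Krt1+/+ skin arrays. On the epidermis arrays it had 4.78, 4.32 and 4.80 on the arrays labelled Krt1-/- epidermis, against 6.67, 5.93 and 6.09 on the Krt1+/+ epidermis arrays. The Krt1-/- arrays were higher in skin and lower in epidermis, without overlap. Vcan rose by 0.88 in skin (limma, adjusted p = 0.032), which ended without Krt1-/- skin replicate 1 (0.66, adjusted p = 0.135) or Krt1+/+ skin replicate 2 (0.58, adjusted p = 0.142). It fell by 1.60 on the arrays labelled Krt1-/- epidermis (SE 0.29, limma adjusted p = 0.001). Its greater level in Krt1+/+ skin than in Krt1+/+ epidermis lost its call without Krt1+/+ skin replicate 1 (adjusted p = 0.0519) or 3 (0.0534), or Krt1+/+ epidermis replicate 2 (0.0534). Fmod, the fibromodulin gene, was near background everywhere and was undetected on all Krt1-/- skin arrays, where it was at least 1.23-fold lower than in Krt1+/+ skin (limma, adjusted p = 0.034). That call ended without any of the 3 Krt1-/- skin arrays or without Krt1+/+ skin replicate 2 or 3 (adjusted p of 0.0543 to 0.113).

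Among the adhesive and matricellular glycoproteins, which link matrix to cell receptors, 5 of 7 were higher in skin in each genotype. Fn1, which encodes fibronectin, read 7.68, 7.90 and 7.10 on the Krt1-/- skin arrays, against 10.29, 10.18 and 9.94 on the Krt1+/+ skin arrays. In epidermis Fn1 read 7.41, 7.60 and 7.25 on the arrays labelled Krt1-/- epidermis, against 6.97, 6.97 and 7.57 on the Krt1+/+ epidermis arrays. Krt1-/- skin overlapped epidermis, and Krt1+/+ skin lay above all other arrays. Fn1 fell by 2.58 in Krt1-/- skin (5.99-fold lower, SE 0.23, limma adjusted p = 4.7e-06), and skin exceeded epidermis in Krt1+/+ tissue by 2.97 but by 0.14 in Krt1-/- tissue, which did not pass. That smaller excess held for the brightest probe. On a further Fn1 probe, ILMN_2588227, the skin and epidermis means were 6.21 and 5.01 in Krt1-/- tissue, against 6.94 and 6.20 in Krt1+/+ tissue. Thbs2, a thrombospondin that regulates fibril assembly, had 10.33, 10.03 and 9.95 on the Krt1-/- skin arrays, against 11.15, 10.85 and 11.15 on the Krt1+/+ skin arrays. Its epidermis values were 6.94, 7.30 and 8.05 on the arrays labelled Krt1-/- epidermis, against 5.80, 5.49 and 5.69 on the Krt1+/+ epidermis arrays. The genotypes were apart in both tissues, in opposite directions. Thbs2 fell by 0.95 in Krt1-/- skin (limma, adjusted p = 0.01) and rose by 1.77 on the arrays labelled Krt1-/- epidermis (SE 0.24, limma adjusted p = 0.00016). Sparc, a collagen-binding matricellular protein, changed likewise, by −1.85 in skin and 1.54 in epidermis on its brightest probe.

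Postn, which encodes periostin, read 6.02, 4.79 and 6.09 on the Krt1-/- skin arrays, against 4.75, 4.47 and 4.55 on the Krt1+/+ skin arrays. Epidermis arrays gave Postn values of 4.60, 4.24 and 4.35 on the arrays labelled Krt1-/- epidermis, against 5.03, 5.05 and 5.32 on the Krt1+/+ epidermis arrays. It was undetected on all arrays labelled Krt1-/- epidermis, where Krt1-/- skin was at least 1.93-fold higher (limma, adjusted p = 0.0035). Postn rose by 1.05 in Krt1-/- skin (limma, adjusted p = 0.013), a call that ended without Krt1-/- skin replicate 1 (adjusted p = 0.0588) or 3 (0.0516). Tnc, the tenascin C gene, had 9.84, 9.10 and 7.42 on the Krt1-/- skin arrays, against 9.12, 9.07 and 9.62 on the Krt1+/+ skin arrays. On the epidermis arrays it had 8.88, 8.99 and 9.70 on the arrays labelled Krt1-/- epidermis, against 9.68, 8.71 and 9.52 on the Krt1+/+ epidermis arrays. Skin and epidermis overlapped for Tnc in both genotypes, and none of its changes passed (skin minus epidermis −0.22, 95% confidence interval −0.95 to 0.50). Dpt, which encodes dermatopontin, a fibril-binding protein, read 10.57, 10.23 and 10.42 on the Krt1-/- skin arrays, against 10.80, 10.28 and 10.82 on the Krt1+/+ skin arrays. In epidermis Dpt read 5.40, 4.46 and 6.37 on the arrays labelled Krt1-/- epidermis, against 4.63, 5.03 and 4.72 on the Krt1+/+ epidermis arrays. Its genotypes overlapped in both tissues, while skin exceeded epidermis by 5.42 (42.8-fold, limma adjusted p = 1.5e-09). Tnxb, the tenascin X gene, fell by 0.93 in Krt1-/- skin (limma, adjusted p = 0.032). The Tnxb call also ended when replicate 1 or 3 of either skin group was left out (adjusted p of 0.0602 to 0.133).

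**Figure D3:**
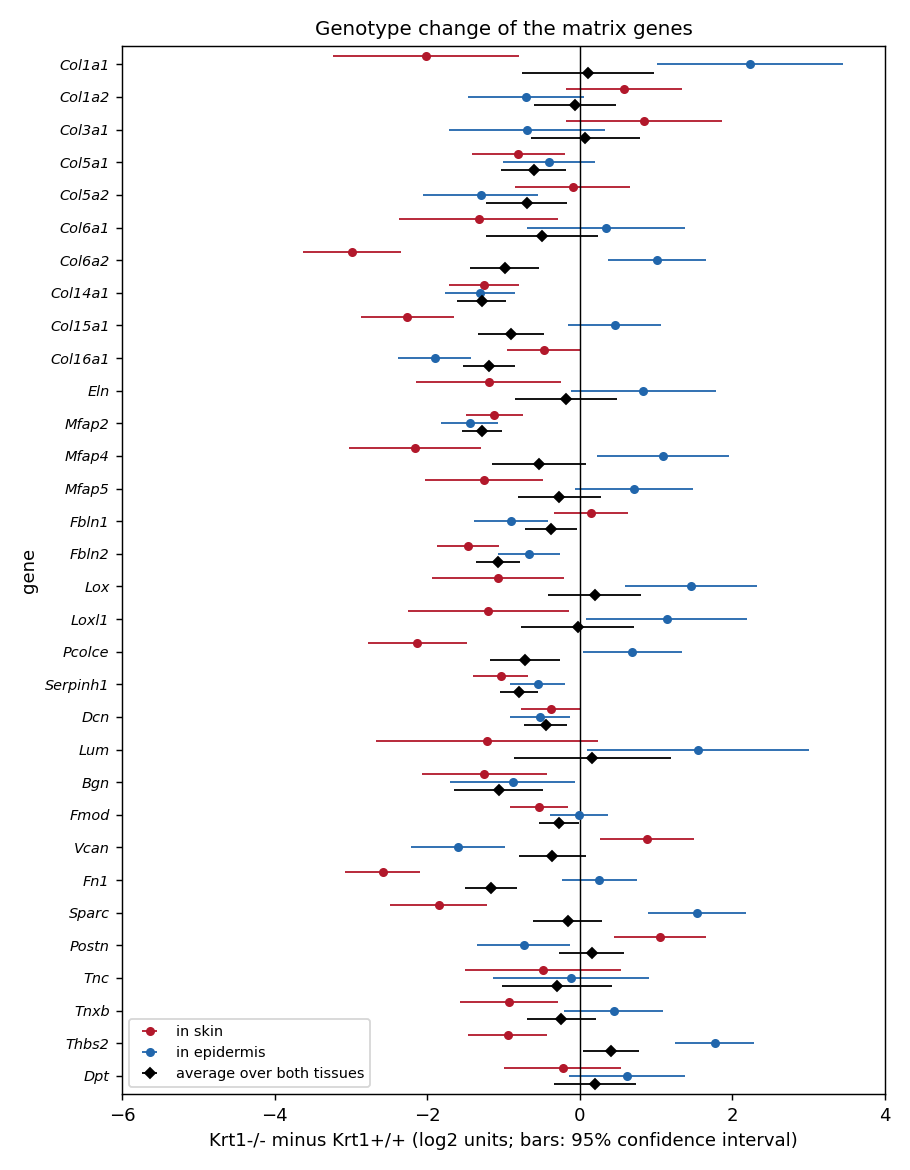
Krt1-/- minus Krt1+/+ for each measured matrix gene, in log2 units, in skin, in epidermis and averaged over both tissues, with 95% confidence intervals from limma. The skin values lie mostly left of 0, and for Col1a1, Col6a2, Sparc and Thbs2 the skin and epidermis values lie on opposite sides of 0.

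The 12 members that fell in the average over both tissues were Col14a1, Mfap2, Col16a1, Fn1, Fbln2, Bgn, Col6a2, Col15a1, Serpinh1, Pcolce, Col5a1 and Dcn, with log2 changes of −1.29 for Col14a1 to −0.45 for Dcn. On their brightest probes, Mfap2, Col14a1, Fbln2 and Serpinh1 are the members that fell in skin, in epidermis and in the average. The average calls of 3 members depended on single arrays. Pcolce (−0.72) lost its call without Krt1+/+ skin replicate 1, the arrays labelled Krt1-/- epidermis replicate 1 or 2, or Krt1+/+ epidermis replicate 2 (adjusted p of 0.0506 to 0.0638). Dcn lost it without Krt1+/+ skin replicate 3, the arrays labelled Krt1-/- epidermis replicate 2 or 3, or Krt1+/+ epidermis replicate 2 (0.054 to 0.0603). Col5a1 lost it without any array but Krt1-/- skin replicate 3, the array labelled Krt1-/- epidermis replicate 3 or Krt1+/+ epidermis replicate 3 (0.0573 to 0.0943).

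Other settings ended some calls too. With median centring, the falls in Krt1-/- skin of Col1a1, Col5a1, Mfap5, Serpinh1, Bgn, Fmod, Tnxb and Thbs2 no longer passed (limma, adjusted p of 0.0501 to 0.533). Nor did those of Serpinh1 and Dcn in epidermis (0.132 and 0.202), of Col5a1, Dcn and Bgn in the average (0.0504 to 0.499), or the higher level of Col16a1 and Dcn in Krt1+/+ skin than in Krt1+/+ epidermis (0.0812 and 0.0592). Without a detection filter, Col5a1, Bgn, Vcan and Tnxb in skin (0.0555 to 0.0801) and Col5a1 and Pcolce in the average (0.0759 and 0.051) did not pass. With only the arrays of a comparison in the fit, Fmod, Vcan and Tnxb in skin (0.0575 to 0.0615) and Lox and Dcn in epidermis (0.0522 and 0.087) did not pass. Quantile normalization within each tissue ended the skin call of Col5a1 (0.051). Without background correction the change of Fmod in skin was −0.17 (0.0761), and calls that stayed had smaller changes, such as 0.36 for Postn in skin and 1.18 for Col1a1, 0.56 for Lox, 0.96 for Thbs2, −0.59 for Vcan and −0.61 for Col5a2 in epidermis. The skin changes of Eln, Lox, Loxl1, Lum, Col3a1 and Col6a1 passed without background correction (0.00173 to 0.0453). With the mean of a gene's probes, Fbln1 in epidermis did not pass (−0.35, adjusted p = 0.0877), and the skin changes were −1.88 for Col6a2, −1.18 for Fn1 and −0.68 for Fbln2.

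On single epidermis arrays the matrix genes varied far more among the arrays labelled Krt1-/- than among the Krt1+/+ ones. Of 32 members, 31, 18 and 30 were detected on the arrays labelled Krt1-/- epidermis replicates 1, 2 and 3, against 25, 23 and 25 on the Krt1+/+ epidermis arrays. On the skin arrays 31 or 32 were detected. The median member log2 intensity was 6.58, 5.15 and 7.06 on the arrays labelled Krt1-/- epidermis, against 6.24, 5.92 and 6.02 on the Krt1+/+ epidermis arrays. Replicate 3 of the labelled Krt1-/- group was the highest of its group for 24 of 32 members (36% of all genes), and replicate 2 the lowest for 25 of 32 (35.7% of all genes). As a share of the mean of skin of the same genotype, with undetected values at their bound, the median member stood at 9.56%, 4.61% and 16.6% on the arrays labelled Krt1-/- epidermis, against 2.39%, 4.03% and 3.98% on the Krt1+/+ epidermis arrays. A lower skin level raises such a share, and the median member change in Krt1-/- skin was −1.09 on the log2 scale. For Fn1 the shares were 87%, 101% and 77.1%, against 9.76%, 9.79% and 15.5%, although its epidermis means were 7.42 and 7.17. For Col1a1 these shares were 3.77%, 0.865% and 13%, against 0.145%, at most 0.0686% (undetected) and 0.127%, and for Lum 16.2%, at most 0.775% (undetected) and 13.4%, against 0.392%, 0.612% and 0.696%. Col3a1 ran the other way, with 1.16%, at most 0.145% (undetected) and 2.03% on the arrays labelled Krt1-/- epidermis, against 2.86%, 2.91% and 2.1% on the Krt1+/+ epidermis arrays. Its skin mean, the base of these shares, was higher in Krt1-/- (12.82) than in Krt1+/+ tissue (11.98). Dcn kept 38.3% to 57.8% of its skin signal on every epidermis array. The count of members that rose on the arrays labelled Krt1-/- epidermis was 12 without replicate 2 and 3 without replicate 3, against 5 with all arrays. The share of all genes that rose in those left-out fits is not given here.

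**Figure D4:**
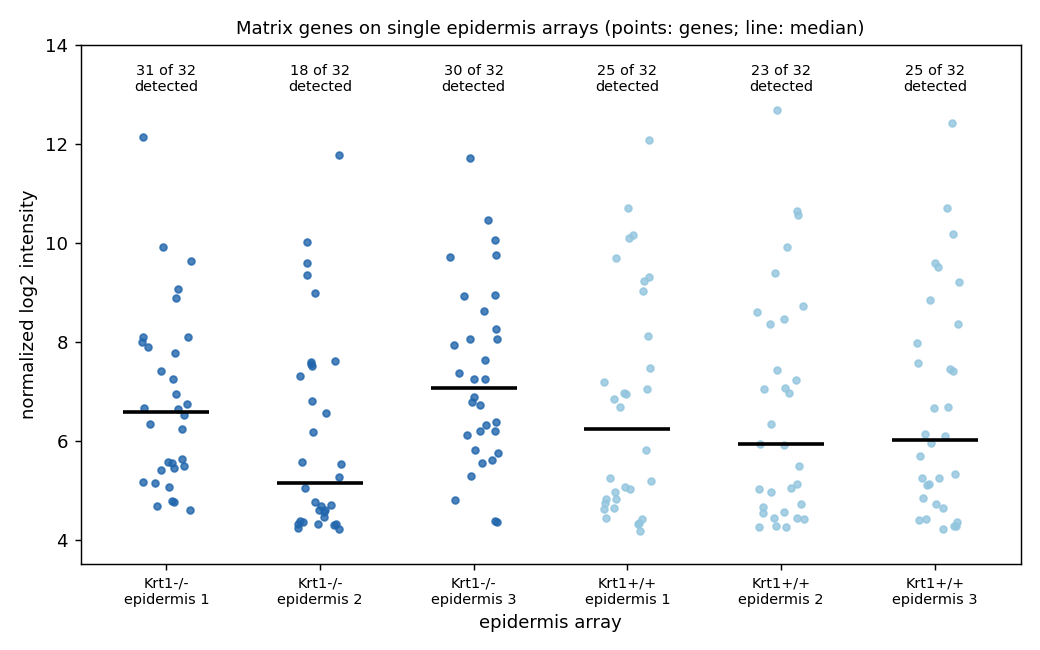
Each point is a measured matrix gene on 1 epidermis array, by normalized log2 intensity, with the median as a line and the number detected above. The medians are 6.58, 5.15 and 7.06 for the arrays labelled Krt1-/- and 6.24, 5.92 and 6.02 for the Krt1+/+ arrays.

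A fit that left out the arrays labelled Krt1-/- epidermis replicates 1 and 3 together was added after the data were seen. The array it kept was the lowest of its group for 25 of 32 members. Lower values in this fit therefore follow from the choice of arrays and are no test of the genotype change. Col1a1 (0.11 in the average with all arrays), Col3a1 (0.07), Lox (0.20) and Lum (0.17) then fell by 0.73, 0.70, 0.49 and 0.98. In this fit the lone array was assumed to vary like the other groups.

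Markers of other cell types were read beside the matrix genes, against 16.2% of all genes that fell and 14.4% that rose in skin, and 16.8% and 15% in epidermis. Of 10 dermal fibroblast markers, all measured, 5 fell and 0 rose in Krt1-/- skin, with summed linear intensities of 3121 to 4198 in Krt1-/- skin, against 6151 to 7054 in Krt1+/+ skin. On the epidermis arrays the sums were 1766 to 2771 where labelled Krt1-/- (3 to 5 markers detected per array), against 597.1 to 684.1 in Krt1+/+ (2 to 6 detected). Most of that signal came from Dpp4, a surface peptidase of papillary fibroblasts, and Thy1, a fibroblast surface protein. Dpp4 was brighter on the arrays labelled Krt1-/- epidermis than in Krt1-/- skin (skin minus epidermis −1.16, limma adjusted p = 0.0048), which goes against its place in a dermal list. Without Dpp4 and Thy1 the other 8 markers summed to 84.12, 47.3 and 176.5 on the arrays labelled Krt1-/- epidermis replicates 1, 2 and 3, against 78.22, 73.8 and 36.33 on the Krt1+/+ epidermis arrays. These sums overlap, and those of the skin arrays were 1976 to 2186 in Krt1-/- and 3190 to 3690 in Krt1+/+. Dpp4 and Thy1 were the 2 markers of the list that rose in epidermis, by 1.96 and 1.54. Pdgfrb, Meox2 and Crabp1 were undetected on all arrays labelled Krt1-/- epidermis, and Pdgfrb, Twist2 and Prrx1 on all Krt1+/+ epidermis arrays.

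Endothelial markers (6 of 7 measured) summed to 1338 to 1880 in Krt1-/- skin, against 2490 to 3437 in Krt1+/+ skin, and 4 fell there while 0 changed in epidermis. Mast cell markers (6 of 6 measured) summed to 6954 to 8796 in Krt1-/- skin, against 12210 to 18040 in Krt1+/+ skin, where 4 fell. In epidermis 3 mast cell markers rose. The list summed to 1497, 516.3 and 1578 on the arrays labelled Krt1-/-, against 453.9, 632.1 and 737 on the Krt1+/+ arrays. Most of the sum on replicate 2 labelled Krt1-/- and on every Krt1+/+ array came from Kit. Kit read 9.13, 8.903 and 9.07 on the arrays labelled Krt1-/- epidermis, against 8.76, 9.24 and 9.46, and 8.525 to 9.42 in skin. Cpa3 read 9.69, 5.33 and 9.34 on these epidermis arrays, against 4.96, 5.32 and 5.497. Tpsb2, Tpsab1 and Mcpt4 were undetected on all Krt1+/+ epidermis arrays. Of 7 pericyte and smooth muscle markers, 1 fell in skin and 2 rose in epidermis, where sums were 661.3 to 1485 on the arrays labelled Krt1-/-, against 218.3 to 357.5 on the Krt1+/+ ones. Acta2 and Notch3 were the brightest of this list on every epidermis array. Acta2 read 9.05, 10.20 and 8.62 on the arrays labelled Krt1-/-, against 7.15, 5.47 and 6.57. Notch3 read 8.31, 8.25 and 8.01, against 7.11, 7.43 and 7.98. Rgs5, Tagln and Myh11 were undetected on all epidermis arrays of both groups. Skeletal muscle markers (7 of 8 measured, 1 fell in skin and 1 rose in epidermis) summed to 2235, 330.7 and 810.2 on the arrays labelled Krt1-/- epidermis replicates 1, 2 and 3, against 334 to 575.9 on the Krt1+/+ ones. Adipocyte markers (5 of 7 measured, 0 changed in either tissue) summed to 436.5, 168.9 and 1161, against 253.2 to 445.2. Replicate 2 of the labelled Krt1-/- group was the lowest of its group for the mast cell, skeletal muscle and adipocyte sums. It was the highest of its group for the pericyte and smooth muscle sums (857.7, 1485 and 661.3 on replicates 1, 2 and 3). Erythroid markers (5 of 6 measured, 0 changed in either tissue) summed to 29290, 27840 and 32900 on the arrays labelled Krt1-/- epidermis, against 2008, 8364 and 41380 on the Krt1+/+ epidermis arrays, so that Krt1+/+ replicate 3 stood apart from its group. Keratinocyte markers (10 of 11 measured, 3 fell and 1 rose in skin, 2 fell and 2 rose in epidermis) summed to 52710 to 63120 in Krt1-/- skin, against 59490 to 70230 in Krt1+/+ skin, and to 60350 to 69240 on the arrays labelled Krt1-/- epidermis, against 60730 to 77100 in Krt1+/+ epidermis. Krt1 itself is among the 3 that fell in skin. Krt14, Krt10 and Lor were the brightest of the list on every array, at 13.39 to 14.41 in skin and epidermis alike. The even sums therefore do not measure the share of keratinocytes. In Krt1-/- skin 2 of 6 macrophage genes fell, and 1 macrophage, 1 of 5 melanocyte and 1 of 3 Schwann cell genes rose. On the arrays labelled Krt1-/- epidermis 1 macrophage and 1 melanocyte gene rose and 1 Schwann cell gene fell. The part of these cells in the matrix gene changes was not tested.

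Probes of the same gene did not always move together within a tissue, which was examined after the data were seen. Among genes with at least 2 probes that passed, probes had opposite calls for 101 of 808 genes (12.5%) in skin and 187 of 956 (19.6%) in epidermis. Among members these were 3 of 7 in skin (Fbln1, Vcan and Sparc) and 3 of 6 in epidermis (Mfap2, Fbln1 and Sparc). In the average over both tissues it was 5 of 601 genes (0.832%) and 0 of 6 members. Between skin and epidermis, probes had opposite calls for 319 of 1417 genes (22.5%) in Krt1-/- tissue and 80 of 1299 (6.16%) in Krt1+/+ tissue. In the average over genotypes it was 63 of 1546 genes (4.08%). Fbln1 was the only member with opposite calls in each of these tissue comparisons. For Sparc, the brightest probe ILMN_3136561 changed by −1.85 in skin and 1.54 in epidermis, and ILMN_3059326 by −2.001 and 0.81. A further Sparc probe, ILMN_1243212, ran the opposite way, with 0.92 in skin and −2.51 in epidermis. For Mfap2, the brightest probe gave −1.12 and −1.45, and ILMN_1240458 gave −2.91 and 0.92, yet the averages over tissues were −1.28 and −0.996. For Vcan, the probe that rose in skin (0.88) stood beside ILMN_1247540, which fell there by 1.24. For Fbln1, an elastic fibre fibulin, the brightest probe gave 0.15 in skin and −0.90 in epidermis, while ILMN_2728985 gave −1.60 and 0.95. Calls thus went opposite ways by probe for Sparc and Fbln1 in both tissues, for Vcan in skin and for Mfap2 in epidermis. Signs also differed by probe, without opposite calls, for other members such as Col3a1 and Fn1. Krt1-/- and Krt1+/+ skin means of Col3a1 were 12.82 and 11.98 on its brightest probe, but 5.59 and 6.15 on ILMN_2683958. Epidermis means of Fn1, in the same order, were 7.42 and 7.17 on its brightest probe, but 5.01 and 6.20 on ILMN_2588227. All 3 Mfap2 probes fell in skin, and all 5 Vcan probes had negative changes in epidermis, of which 1 passed.

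**Figure D5:**
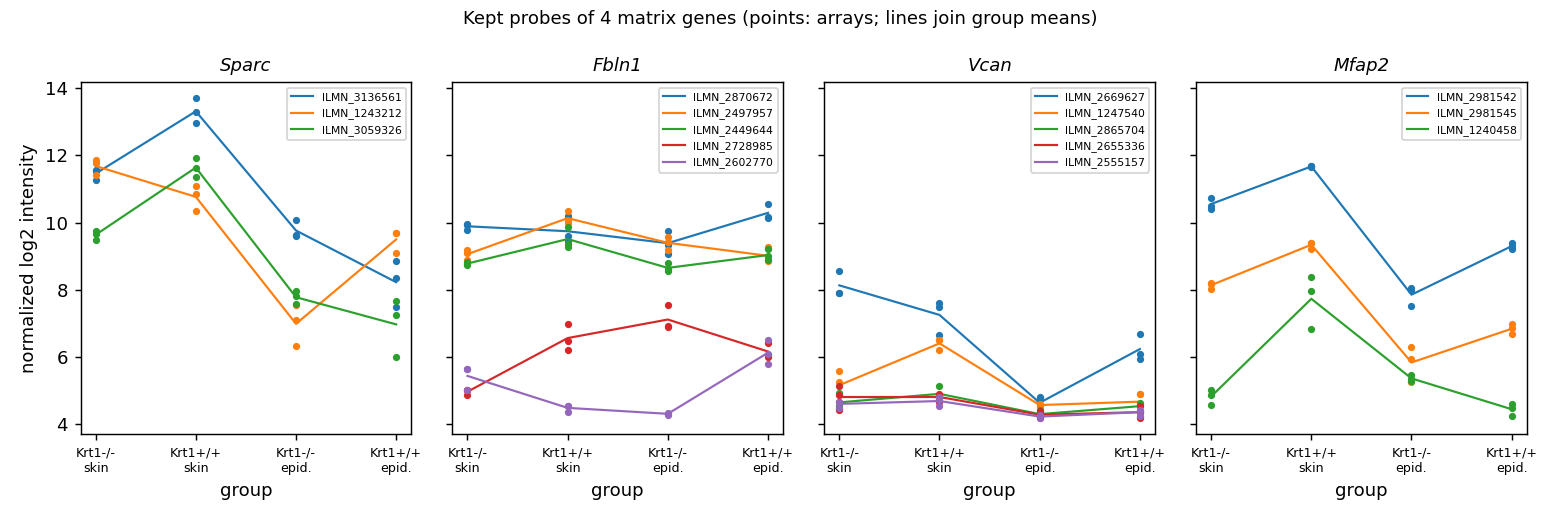
Kept probes of Sparc, Fbln1, Vcan and Mfap2, with normalized log2 intensity of each array as points and lines joining the means of the 4 groups. For Sparc, probe ILMN_1243212 is higher in Krt1-/- than in Krt1+/+ skin, whereas the other probes shown are lower.

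Matrix-related genes outside the members were followed in 6 further lists, chosen with earlier results of these data known. Of 16 measured other collagens (18 listed), 10 fell and 0 rose in the average over both tissues, with a list median of −0.495, against −0.0483 over all genes. Over all genes tested, 13.2% fell and 10.9% rose in that average, and 16.2% fell in skin. Col4a2, a chain of basement membrane collagen IV, had the largest change there, −1.02 (limma, adjusted p = 0.0017). Of 16 measured collagen maturation enzymes (21 listed), 8 fell in Krt1-/- skin, and 5 fell and 1 rose in the average. On the arrays labelled Krt1-/- epidermis 4 rose and 2 fell, against 15% and 16.8% of all genes, with a list median of 0.186. P3h1, a prolyl 3-hydroxylase of collagen chains, changed most in skin, −1.62 (limma, adjusted p = 0.00014). Of 14 measured TGF-beta pathway genes (18 listed), 6 fell in the average, led by Tgfb2, a ligand, with −1.34 (limma, adjusted p = 0.00025). Tgfb1, another ligand of that pathway, had the largest change in Krt1-/- skin, −1.69 (limma, adjusted p = 0.0011). In epidermis Tgfb1 lay the other way, with 6.30, 7.05 and 6.14 on the arrays labelled Krt1-/-, against 4.83, 5.74 and 5.38 on the Krt1+/+ arrays.

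Of the 12 matrix metalloproteinases and inhibitors, all measured, 4 fell and 2 rose in the average over tissues. Mmp3, a protease that degrades proteoglycans and fibronectin, was at least 4.95-fold higher in Krt1-/- skin, since no Krt1+/+ skin array detected it (limma, adjusted p = 0.012), and it rose by 2.41 on the arrays labelled Krt1-/- epidermis (limma, adjusted p = 0.015). Of 12 measured matrix receptors (14 listed), 2 fell in the average, a share near that of all genes. Itga5, the alpha chain of the fibronectin receptor integrin, changed most in Krt1-/- skin, −1.996 (limma, adjusted p = 0.0026). In epidermis Itga5 read 5.29, 5.92 and 5.23 on the arrays labelled Krt1-/-, against 4.75, 4.31 and 5.18 on the Krt1+/+ arrays. Of 12 measured other proteoglycan and hyaluronan genes (16 listed), 3 fell and 1 rose in the average. Sdc1, a cell surface proteoglycan of keratinocytes, was the gene that rose, by 1.19 in the average (limma, adjusted p = 0.00013).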

How the data were processed

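Total RNA of 12 samples was read on one-colour bead arrays. The deposited non-normalized table gives, per the file headers, the signal of each probe, taken here as linear intensity without scaling between arrays. It also gives a detection p-value per probe and array, per the file headers. A second deposited table holds the authors' normalized intensity and served as an alternative. The sources used here name neither the scanner software nor the authors' normalization.

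Intensities were background-corrected from the detection p-values (offset 16), quantile normalized and taken as log2 (function neqc, limma 3.58.1, R 4.3.3). Of 45281 probes, 21712 had a detection p under 0.05 on at least 3 arrays. Symbols came from the platform annotation, updated by gene ID or accession. A limma fit of the 4 group means (8 residual and 5.39 prior degrees of freedom) gave each contrast, with Benjamini-Hochberg adjustment over 12099 genes and a threshold of 0.05. The spread thus comes from all 12 arrays. Precision is limited by the number of arrays. The fit was tested on simulated data.

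The members, the lists and the tests were chosen with earlier results of these data known. All members could be named. Values of every array were given for 10 chosen genes and, in each role group, for the members with the largest rise and fall among those that passed in skin, in epidermis and between tissues. From other lists, the member with the largest change in a contrast was named. Same-numbered arrays of different groups deviated together in 2 of 18 pairs by over 0.1 (correlations of −0.212 to 0.279), so the numbers were not treated as pairs. Alternatives were no background correction, median centring, quantile normalization within each tissue, the authors' table, no detection filter, a stricter filter (a whole group of 3 arrays under 0.01), averaging the probes of a gene, a trended and robust prior, fits restricted to the compared arrays, a test against 1.5-fold, the replicate number as a block, and each array left out. Start regions and figures were made with Python 3.11.15, pandas 2.3.3 and matplotlib 3.10.9.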

Additional observations from a re-analysis of the deposited data

Results flagged for a closer look

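For 19 of 32 measured matrix genes (30.9% of all genes tested), the Krt1-/- minus Krt1+/+ change differed between skin and epidermis when that difference was tested itself (limma, adjusted p under 0.05). In each tissue the genotypes lie in different column sets of the arrays, so a difference of the tissue effects and a difference between the sets cannot be told apart, and Krt1 goes against the label of the arrays labelled Krt1-/- epidermis. Values are the skin change minus the epidermis change on the log2 scale.

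The collagens differed by −4.25 for Col1a1, −4.00 for Col6a2, −2.72 for Col15a1 and 1.43 for Col16a1. Col1a1 and Col6a2 fell in skin and rose in epidermis. The rise of Col6a2 did not pass without background correction (0.34) or in the authors' normalized table (0.35). Elastic fibre genes differed by −3.24 for Mfap4, −2.03 for Eln, −1.97 for Mfap5, −0.80 for Fbln2 and 1.05 for Fbln1. Genes of cross-linking and processing differed by −2.82 for Pcolce, −2.53 for Lox and −2.34 for Loxl1. Proteoglycans differed by −2.77 for Lum and 2.48 for Vcan. Adhesive and matricellular genes differed by −3.39 for Sparc, −2.84 for Fn1, −2.72 for Thbs2, −1.37 for Tnxb and 1.79 for Postn. With the mean of its probes the difference of Fn1 was −0.85 (limma, adjusted p = 0.0187). In all, 15 differences were negative and 4 positive, or 10 and 8 with median centring. The calls for Eln, Fbln1, Fbln2, Lum and Tnxb ended when at least 1 array was left out, those for Eln, Fbln2, Loxl1, Lum and Tnxb with median centring, and those for Lum, Vcan and Sparc with the mean of a gene's probes. Probes of Fbln1, Vcan and Sparc gave opposite calls in this test, as did those of 261 of 969 genes (26.9%).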

How the results depend on the processing

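The 28 members higher in skin averaged over genotypes stayed 28 or 29 in number under every alternative run for that average, which left out quantile normalization within each tissue and fits of only the compared arrays. Median centring left 9 members that fell and 3 that rose in Krt1-/- skin, 1 that rose in the average over tissues, 1 lower in Krt1+/+ skin than in Krt1+/+ epidermis and 8 positive differences between the tissues; it shifted the median of all genes by −0.24 between skin and epidermis. No detection filter left 1 that rose in skin. The mean of a gene's probes left 1 that rose in skin, 3 that rose in epidermis and 1 lower in Krt1+/+ skin. Fitting only the arrays of a comparison also left 1 lower in Krt1+/+ skin. A test against 1.5-fold left 0 that rose and 7 that fell in skin, 2 that rose and 4 that fell in epidermis, 3 that fell in the average, and 2 positive and 9 negative differences between tissues, since it asks for a larger change. With each array left out in turn, 0 to 3 rose in skin, 3 to 12 rose in epidermis, 0 to 2 rose in the average and 0 to 1 were lower in Krt1+/+ skin. Shares of all genes are not given for these alternatives. Without the arrays labelled Krt1-/- epidermis replicates 1 and 3 together, an alternative added after the data were seen, 1 rose in epidermis and 19 fell in the average. Directions turned with the mean of a gene's probes for Fbln1 (−0.46) and Vcan (−0.14) in skin, Sparc (−0.056) in epidermis, and the differences between tissues of Mfap2 (−1.23), Fbln1 (−0.11) and Fbln2 (0.015). They turned without those 2 arrays for Col1a1 (−0.73), Col3a1 (−0.70), Lox (−0.49) and Lum (−0.98) in the average. The causes were not tested. With the replicate number as a block, 16 fell and 2 rose in skin, 9 fell and 5 rose in epidermis and 12 fell in the average. Of 12 arrays, 3 correlated best with an array of their own number. Fmod on all arrays and Postn on the arrays labelled Krt1-/- epidermis and in Krt1+/+ skin lay near background. So did Lox, Mfap5 and Pcolce in Krt1+/+ epidermis, while Col15a1, Loxl1 and Mfap4 were detected on 1 array each there. Near background the size of a change depends on the background correction. Without it, Krt1+/+ skin exceeded Krt1+/+ epidermis by 3.65 for Pcolce, 3.83 for Mfap5 and 3.33 for Col15a1. With it, these values were 5.85, 6.01 and 5.36.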
